A study of Mus musculus with 18 samples.

Results

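The comparison of knockout control with wild-type stem cells covers 12057 genes of the 44349 in the deposited expression table, in 6 of the 18 libraries of the study. A gene was included where at least 3 of the 6 libraries reached 1 FPKM, which is a fragment count scaled to transcript length and to the size of the library. A gene can pass through the 3 libraries of 1 group alone, and its direction is then set by the filter. Counts and medians of the lists below include such genes. All 6 libraries came from long-term haematopoietic stem cells (LT-HSC) of mouse bone marrow, sorted by the surface profile Lineage-, Sca-1+, c-Kit+, CD34-, Flk2- and CD49b-low. The 3 libraries named WT came from wild-type mice, and the 3 named KO Ctrl from mice without DERARE, the distal element of the Hoxb gene cluster that responds to retinoic acid. The titles of the knockout libraries read KO Ctrl, while their genotype field reads "knockout wt control", and the labels do not say what the control refers to. Strain, sex and age are not given, nor is it said whether replicates are separate animals. The p-values therefore cover only the variation among libraries, pooled within groups over all 18 of the study, and part of it may be technical. The other libraries used below are 3 with the label Wnt5a, 3 with the label KO Wnt5a, for which the submitters speak of a knockout rescue, and 3 each of a reserve population from wild-type and knockout mice (WT Reserve and KO Reserve). The labels do not say how Wnt5a was applied.

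LT-HSC are the rare bone marrow cells that sustain all blood lineages for life, and most of them are out of the cell cycle at any time. The Hoxb genes encode homeobox transcription factors, several of which act in blood stem cells, and retinoic acid receptors bound at distal elements regulate parts of the cluster. Entry into division raises a well-known group of mitotic genes, whose promoters often hold a cell cycle homology region (CHR) beside CCAAT boxes. The p53 protein, in contrast, induces brakes on the cell cycle such as Cdkn1a, which encodes p21.

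Inferred depth of the 6 libraries ran from 21300000 fragments (KO Ctrl replicate 1) to 41200000 (WT replicate 3), so that a single fragment in 1 kb of transcript equals 0.0470 and 0.0243 FPKM in them. Replicates of a group correlated at 0.9554 to 0.9698 on the log2(FPKM + 1) scale. Pairs across the genotypes correlated at 0.9482 to 0.9604, so the ranges overlap. The first principal component of the 6 libraries (31.2% of the variance) separated the genotypes, and the second (23.9%) set KO Ctrl replicate 1 at 38.84, away from the other libraries at -23.96 to 14.29. The table cannot show the loss of DERARE itself, which is a regulatory element and not a gene.

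Differences between KO Ctrl and WT were tested with limma on log2(FPKM + 1), and a gene is called here where its Benjamini-Hochberg adjusted p is below 0.05. Of the 12057 genes 494 were called (4.10%), 289 higher in KO Ctrl (2.40%) and 205 lower (1.70%). Over all genes the median difference was 0.04, and 56.3% of genes were above 0. More than 2-fold differences on this scale were found for 49 of the higher and 56 of the lower genes. Without KO Ctrl replicate 1, the shallowest library, 320 genes were higher and 194 lower. Without any other 1 of the 6 libraries the total fell, to 232 (WT replicate 1), 274 (WT replicate 2), 156 (WT replicate 3, 92 higher and 64 lower), 201 (KO Ctrl replicate 2) and 283 (KO Ctrl replicate 3). A total of 133 genes, 77 higher and 56 lower, were called in each of the 6 fits that left out 1 library, and these are named stable calls below. The split between directions moved with the scaling. It was 58.5% higher as deposited and 38.0% higher (213 higher, 347 lower) after median-ratio scaling. Library groups did not overlap for 492 of the 494 called genes, against 3573 of all genes tested (29.6%).

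**Figure D1:**
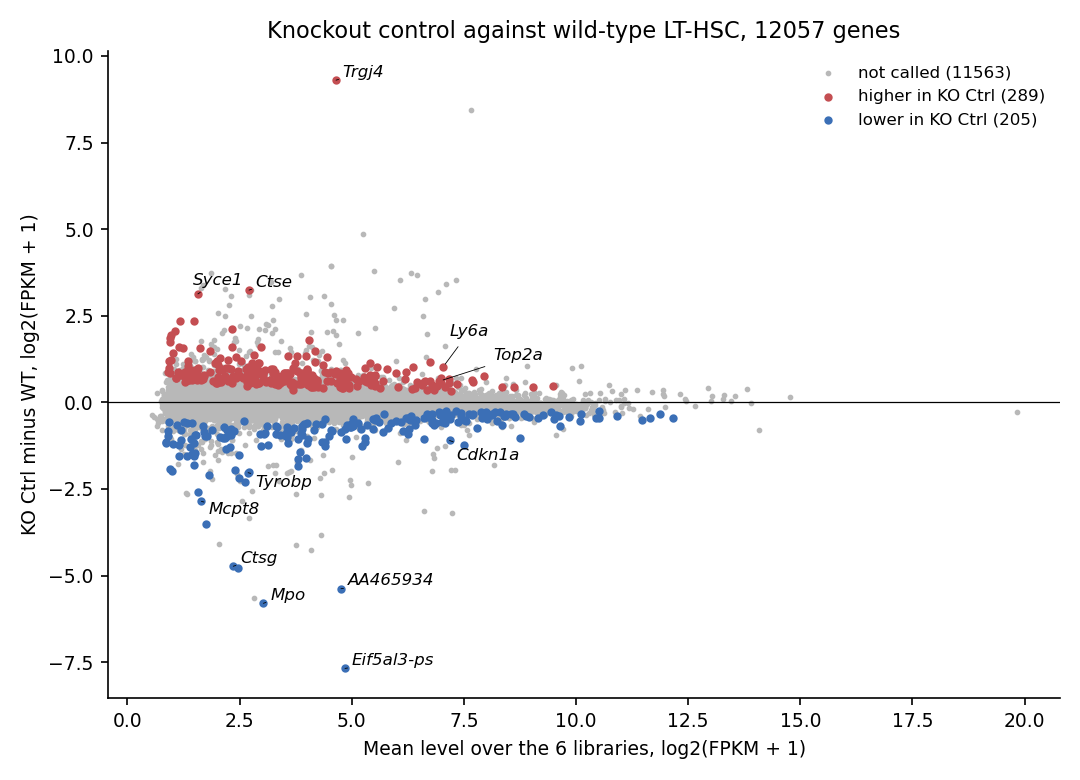
Difference between KO Ctrl and WT (vertical axis, log2(FPKM + 1)) against the mean level over the 6 libraries (horizontal axis, same scale), 1 dot per gene. Red dots are the 289 genes called higher in KO Ctrl and blue dots the 205 called lower. Mpo and Ctsg lie far below 0, and Ctse and Syce1 above it.

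The promoters of the mitotic and p53 genes described first are shown because these groups moved in opposite directions. Sequences are from RefSeq, build GRCm38.p6, and hold only bases before the annotated start, read 5′ to 3′ on the strand of the gene. Where a gene has several annotated starts, the start farthest upstream was used. Its other starts lie downstream of the stretch, at distances not given here. For 4 mitotic genes that were called and have both motifs there, the 120 bases before the start are given, with capitals marking the CHR letters TTTGAA or TTCGAA and the CCAAT box, on either strand. They lie at chr11:99024190-99024309 on the minus strand (Top2a), chr19:37376262-37376381 on the plus strand (Kif11), chr2:164769809-164769928 on the plus strand (Ube2c) and chr10:69352913-69353032 on the minus strand (Cdk1). For Cdkn1a (chr17:29090879-29090978, plus strand) and Ccng1 (chr11:40755407-40755506, minus strand), targets of p53 that fell, the capitals mark p53 half-sites. Both were chosen because they hold a half-site, which most of the called p53 targets with a promoter window lack. The Cdkn1a stretch is the 100 bases before the start, and that of Ccng1 runs from 220 to 121 bases before it.
Top2a: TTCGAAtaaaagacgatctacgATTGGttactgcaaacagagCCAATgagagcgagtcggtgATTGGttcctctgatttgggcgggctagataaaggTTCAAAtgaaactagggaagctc
Kif11: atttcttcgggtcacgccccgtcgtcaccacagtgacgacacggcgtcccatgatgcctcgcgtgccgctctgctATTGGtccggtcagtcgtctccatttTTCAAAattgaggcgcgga
Ube2c: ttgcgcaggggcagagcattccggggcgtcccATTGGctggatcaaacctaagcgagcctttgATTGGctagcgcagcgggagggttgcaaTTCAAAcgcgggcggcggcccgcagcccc
Cdk1: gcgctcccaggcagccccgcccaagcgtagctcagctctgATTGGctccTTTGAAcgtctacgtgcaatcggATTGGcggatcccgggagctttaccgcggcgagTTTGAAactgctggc
Cdkn1a: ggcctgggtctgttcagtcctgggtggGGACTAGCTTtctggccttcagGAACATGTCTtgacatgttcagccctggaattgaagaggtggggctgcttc
Ccng1: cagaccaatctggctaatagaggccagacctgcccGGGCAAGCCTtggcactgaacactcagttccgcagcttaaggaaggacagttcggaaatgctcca

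RefSeq promoter windows, from 250 bases before to 50 after a start, were matched by symbol for 55 of the 66 tested mitotic genes (60 windows) and 30 of the 40 tested p53 targets (45 windows). A CHR match, TTTGAA or TTCGAA on either strand, was present in 75.0% of the mitotic windows, in 14.4% of the 11208 windows of tested genes and in 19.2% of all 32851 windows. CCAAT was present on either strand in 71.7%, 38.3% and 37.4% of the same sets, and both motifs in 61.7%, 5.97% and 7.52%. The ends of a CHR and a CCAAT match can share 1 base. Of 50 windows of DNA replication genes 10 held a CHR match. The p53 half-site, a motif of 10 letters and its own reverse complement in pattern, was found in 28.9% of the p53 target windows, 6.77% of those of tested genes and 8.36% of all windows. Among called p53 targets, 2 of the 8 genes with windows held it (22.2% of 9 windows), Cdkn1a and Ccng1. These are matches of letters and not measured binding.

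Mitotic genes were called in the higher direction only. All 66 tested members of the mitotic list were above 0, with a median of 0.43 against 0.04 over all genes. Of these 25 rose (37.9%) while none fell, where 56.3% of all genes were above 0 and 2.40% were called higher. Top2a, the topoisomerase that untangles chromosomes before they separate, stood at 97.6, 100.2 and 99.5 FPKM in the WT libraries and at 154.8, 152.1 and 147.0 in the KO Ctrl libraries. Each KO Ctrl library lay above each WT library, by 0.61 ± 0.09 (standard error) on the log2 scale, with a limma adjusted p of 6.06e-04. Prc1, which bundles the microtubules of the central spindle, measured 101.5, 97.9 and 95.4 FPKM in WT and 182.4, 133.8 and 169.7 in KO Ctrl. Its groups did not overlap either, and the difference was 0.70 ± 0.11. Mki67, the proliferation marker Ki-67, measured 13.6, 15.2 and 13.6 FPKM in WT against 21.5, 20.8 and 24.4 in KO Ctrl, a rise of 0.62.

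Further members of the list act in the spindle, on chromosomes and in the control of mitosis. The kinesins Kif11 and Kif23, motors of the spindle and of the midzone, rose by 0.68 and 0.75, and the spindle protein Aspm by 0.90. Ect2, which sets the cleavage furrow, rose by 1.15 and lost its call in 3 of the 6 fits without 1 library. Sgo1 and Sgo2a, the shugoshins that protect the cohesion of sister chromatids, rose by 0.73 and 0.93. Nusap1, which stabilises spindle microtubules, rose by 0.85, Cdca2, which directs a phosphatase to chromosomes, by 0.84, and Smc4, a condensin subunit, by 0.52. Ube2c, the ubiquitin-conjugating enzyme of the anaphase-promoting complex, had the highest levels of these, 314.3, 360.2 and 327.4 FPKM in WT and 432.6, 431.2 and 504.8 in KO Ctrl, a rise of 0.45. Cdk1, the kinase that starts mitosis, rose by 0.43 from 451 to 610 FPKM on average, yet with an adjusted p of 0.0489 its call was lost in each of the 6 fits without 1 library (0.0806 to 0.153). Ccnb1, its cyclin partner, was not called, with a difference of 0.49 and an adjusted p of 0.071.

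The mitotic count moved with single libraries and with transcript length. It was 12 without WT replicate 3, 15 without KO Ctrl replicate 3 and 16 to 18 in the other 4 such fits. Among the longest 20% of genes (7137 bp or more) 75 were called higher and 10 lower, and among the shortest (up to 1919 bp) 39 higher and 86 lower. With a trend along transcript length removed, a step chosen after the data were seen, the mitotic median was 0.35 and 20 members were called. The part of length in the result was not tested further. After quantile normalization 65 of the 66 members were above 0. Genes of DNA replication, the MCM helicases and polymerases of S phase among them, had 48 of 51 tested members above 0. Among all genes 56.3% were above 0. The median of the list was 0.22, but none was called. An unadjusted limma p below 0.05 was reached by 13 (11.6% of all genes did in that direction).

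Targets of p53 were called in the lower direction only. Of 40 tested members 32 were below 0, with a median of -0.41, and 10 fell (25%) while none rose. Over all genes tested 43.7% were below 0 and 1.70% were called lower. Cdkn1a, which encodes the kinase inhibitor p21, stood at 193.6, 206.8 and 233.3 FPKM in the WT libraries and at 113.3, 93.6 and 88.9 in the KO Ctrl libraries. The groups were far apart, by -1.10 ± 0.21 with a limma adjusted p of 0.0069. Phlda3, an inhibitor of the kinase AKT, measured 51.2, 60.3 and 62.0 FPKM in WT and 22.4, 23.3 and 32.0 in KO Ctrl, and fell by 1.14. Pmaip1, which encodes the pro-apoptotic protein Noxa, measured 6.50, 5.19 and 5.99 FPKM in WT and 3.27, 2.29 and 2.25 in KO Ctrl, and fell by 0.94. These 3 were stable calls.

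The other 7 p53 targets that fell lost their call in at least 2 of the 6 fits without 1 library. They are the death receptors Eda2r (-1.22) and Fas (-0.92), the kinase Plk2 (-0.96), the anti-proliferative factor Btg2 (-0.76), the RNA-binding protein Zmat3 (-0.71), the sugar reductase Dcxr (-0.67) and cyclin G1 (Ccng1, -0.64). The number of members called ran from 3 without WT replicate 3 to 12 without KO Ctrl replicate 1, with 5 to 7 in the other 4 fits. Xpc, a DNA damage sensor on the list, was above 0 at 0.46 and not called (adjusted p 0.0613). Trp53 itself has missing values in 2 of the 6 libraries and was not tested. Brakes on the cell cycle outside this list went both ways, since Cdkn1c (p57) fell by 0.88 while Cdkn2c (p18) rose by 0.57, each called in 1 of the 6 fits without 1 library.

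**Figure D2:**
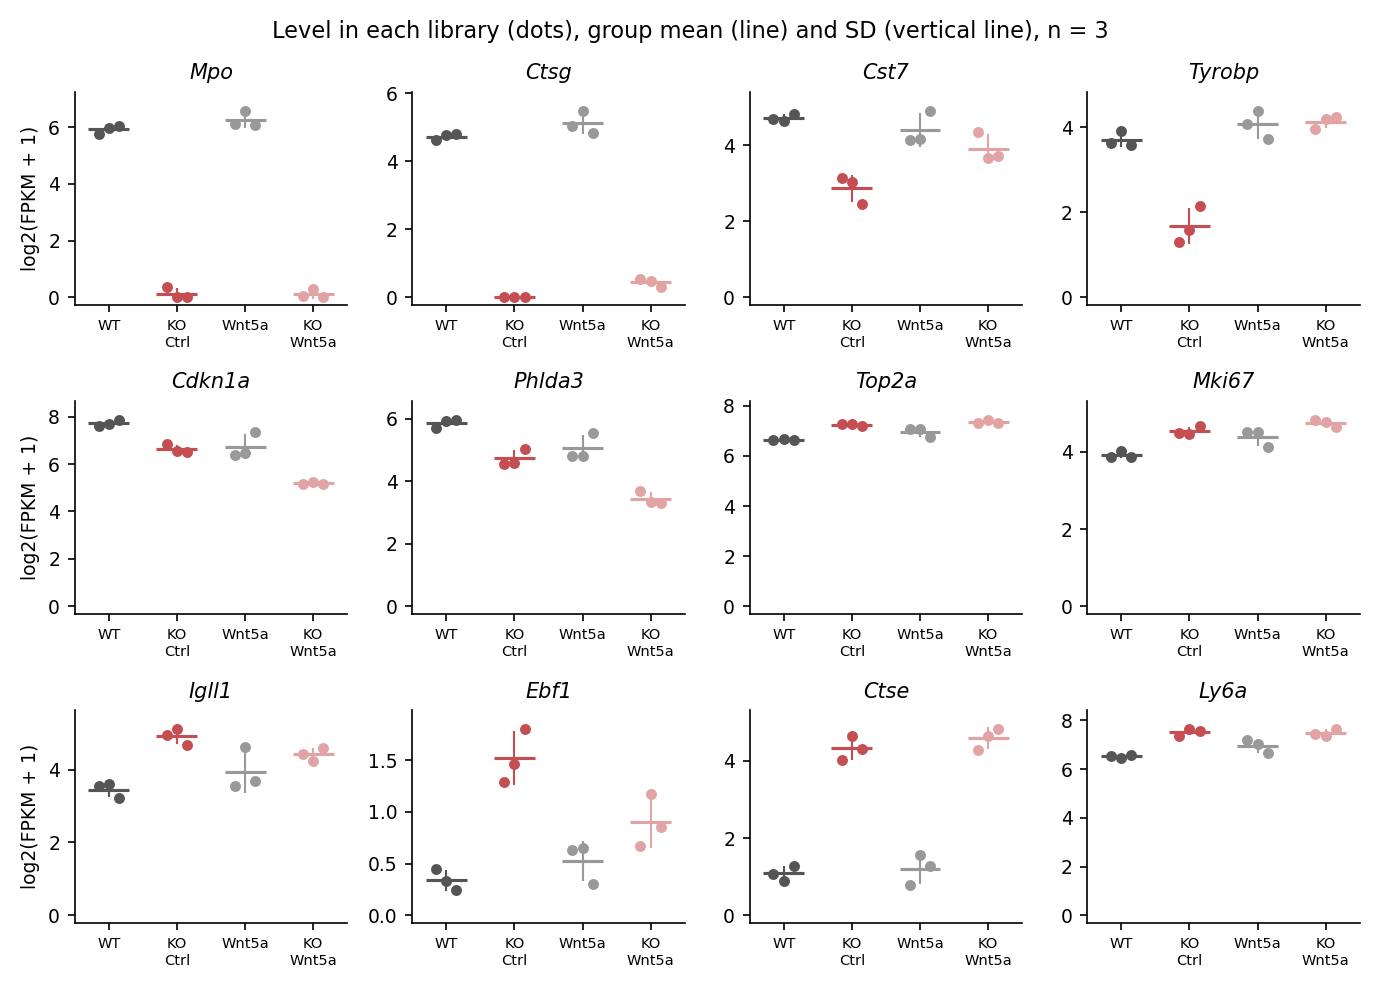
Level of 12 genes on the log2(FPKM + 1) scale (vertical axis) in the WT, KO Ctrl, Wnt5a and KO Wnt5a libraries (horizontal axis), with 1 dot per library, a line at the mean and a vertical line for the SD (n = 3 per group). Mpo and Ctsg are near 0 in both knockout groups shown, whereas Tyrobp is low in KO Ctrl and not in KO Wnt5a.

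Genes of myeloid granules were among those with the largest falls. Mpo (chr11:87793581-87804413, plus strand) encodes myeloperoxidase, the enzyme of primary granules in neutrophil precursors. It stood at 53.7, 60.9 and 65.4 FPKM in WT and at 0.273, 0.011 and 0.010 FPKM in KO Ctrl. All 3 KO Ctrl values lay far below the WT range, with replicate 1 the highest of them, and the difference was -5.80 ± 0.27 with a limma adjusted p of 1.02e-09. Gm11505, annotated antisense to Mpo, fell with it, from 26.7, 26.6 and 30.6 FPKM to 0.151, 0 and 0. Libraries keep no strand, so reads of the overlapping pair cannot be told apart. Ctsg, which encodes the serine protease cathepsin G, measured 23.5, 26.4 and 26.8 FPKM in WT and is listed at 0 in all 3 KO Ctrl libraries (adjusted p 1.02e-04). Mpo, Gm11505 and Ctsg passed the filter through the WT libraries alone.

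Other members of the granule list fell less. Cst7, which encodes the protease inhibitor cystatin F, measured 24.95, 24.1 and 27.3 FPKM in WT and 7.75, 7.13 and 4.50 in KO Ctrl, and fell by 1.85. Ms4a3, a membrane protein of granulocyte and monocyte precursors, fell by 1.42, and Nkg7, a granule protein of cytotoxic and myeloid cells, by 1.27. In all, 5 of 11 tested members fell and none rose, with a median of -0.58, and all 5 were stable calls. The share called lower over all genes was 1.70%. Prtn3, the proteinase of the same granules, was at 22.1, 30.0 and 28.8 FPKM in WT and 12.6, 21.95 and 19.3 in KO Ctrl and was not called (adjusted p 0.336). Elane, neutrophil elastase, was under the filter on low values, at 1.07, 0.506 and 1.26 FPKM in WT and listed at 0 in each KO Ctrl library. Summed over the list, the level was 1580 to 1720 FPKM in WT and 1300 to 1440 in KO Ctrl, most of it from Calr and Srgn, which many cells express and which were not called.

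Some basophil, mast cell and monocyte genes fell as well, 3 of 14 tested on each of their lists, against 1.70% of all genes. Mcpt8, a protease of basophils, measured 6.69, 7.72 and 7.998 FPKM in WT and 0, 0 and 0.564 in KO Ctrl, a fall of 2.86 and a stable call. It passed the filter through the WT libraries alone. Cpa3, the carboxypeptidase of mast cell granules, fell by 1.8, with an adjusted p of 0.0101 that rose to 0.0544 and 0.0568 without KO Ctrl replicate 2 and without WT replicate 3. Fcer1a, the chain of the IgE receptor that binds IgE, fell by 1.29 but was called in 1 of the 6 fits without 1 library. On this list of 14 tested genes 3 fell and 1 rose, and the summed level was 1010 to 1090 FPKM in WT and 661 to 753 in KO Ctrl. The gene that rose was Kit, the receptor of stem cell factor, which is also a marker of the sort.

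Tyrobp, the signalling adaptor of many myeloid receptors, measured 11.4, 13.9 and 10.97 FPKM in WT and 1.45, 2.02 and 3.42 in KO Ctrl. No KO Ctrl library came near the WT range, and the fall of 2.03 ± 0.19 had an adjusted p of 9.06e-06. Fcer1g, the chain that Fc receptors use to signal, had far higher levels, 546.6, 593.5 and 717.6 FPKM in WT and 378.4, 299.7 and 243.0 in KO Ctrl, and fell by 1.02. The third call among 14 tested monocyte, macrophage and dendritic genes was Cd74, the invariant chain of MHC class II, with a fall of 1.35 that was lost in 3 of the 6 fits without 1 library. Lyz2, the lysozyme of myeloid cells, did not change by this test, at 139 FPKM in WT and 127 in KO Ctrl (adjusted p 0.75). The summed level of the list was 996 to 1200 FPKM in WT and 734 to 787 in KO Ctrl.

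Among the 20 genes with the largest falls, several others belong to inflammatory or myeloid cells by common knowledge. The chemokine Ccl9 measured 7.50, 4.29 and 7.55 FPKM in WT and 0.605, 0.067 and 0.054 in KO Ctrl, and fell by 2.58. Ccl9 passed the filter through the WT libraries alone. Ccl2, which attracts monocytes, fell by 2.18, galectin-3 (Lgals3) by 2.31, and the inhibitory IgG receptor Fcgr2b by 2.02. Ncf1, a subunit of the phagocyte oxidase, fell by 1.26. The call of C5ar1, the receptor of complement fragment C5a (-2.09), was kept in 1 of the 6 fits without 1 library. Il1bos, which overlaps Il1b on the other strand, fell by 1.63, while Il1b itself was not called (-1.6, adjusted p 0.0921). Cuedc1, a gene on chromosome 11, measured 25.9, 23.5 and 30.8 FPKM in WT and 8.99, 6.61 and 8.57 in KO Ctrl (-1.62), and the membrane protease Tmprss7 fell by 1.29. The uncharacterised transcript AA465934 fell by 5.38.

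The early B lymphoid list went the other way. Of 17 tested members 16 were above 0, with a median of 0.82, and 9 rose (52.9%) while none fell. The shares over all genes were 56.3% above 0 and 2.40% called higher. Igll1, a chain of the surrogate light chain of B cell precursors, measured 10.6, 11.2 and 8.28 FPKM in WT and 30.1, 33.9 and 24.7 in KO Ctrl. The groups lay well apart, by 1.47 ± 0.22 with a limma adjusted p of 9.51e-04. Ebf1, a transcription factor that commits cells to the B lineage, was low throughout, at 0.359, 0.257 and 0.182 FPKM in WT and 1.45, 1.75 and 2.49 in KO Ctrl (1.18). It passed the filter through the KO Ctrl libraries alone, so its direction in the list was set by the filter. Cd79a, a signalling chain of the B cell receptor, rose by 1.14 from 4.55, 3.36 and 3.04 FPKM to 7.62, 9.56 and 10.5. Cd24a, a surface protein of many young blood cells, rose by 0.95 and had the highest level of the list among the called genes, 39.7, 44.5 and 33.0 FPKM in WT and 69.9, 80.8 and 76.5 in KO Ctrl.

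These 4 were stable calls. Il7r, the receptor of interleukin 7, rose by 1.06 and lost its call without WT replicate 2 (adjusted p 0.0588). The calls of Cd72 (1.33), Vpreb1 (0.93), Vpreb3 (0.91) and Sox4 (0.61) were lost in 4 or 5 of the 6 fits, and the count of members called ran from 4 without WT replicate 2 and 5 without KO Ctrl replicate 2, KO Ctrl replicate 3 or WT replicate 3 to 8 without KO Ctrl replicate 1. Over the whole list the summed level was 118 to 139 FPKM in WT and 206 to 259 in KO Ctrl. Ighm, the constant region of immunoglobulin M, rose by 1.30 and was called in 1 of the 6 fits, and Tcrg-C4, a constant segment of the T cell receptor gamma locus, rose by 1.48 from 1.195, 1.45 and 0.799 to 6.42, 4.71 and 3.96 FPKM. In bulk libraries, more or fewer cells of a type and more or less RNA per cell cannot be told apart, which holds for the myeloid genes too.

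Of 28 tested megakaryocyte genes, which LT-HSC are known to express at some level, 2 fell. The median was -0.44 with 27 members below 0, where 43.7% of all genes were below 0 and 1.70% were called lower. Treml1, a receptor of platelet granules, measured 132.5, 119.2 and 176.9 FPKM in WT and 69.5, 61.7 and 69.2 in KO Ctrl (-1.07), and Gp9, a part of the platelet receptor for von Willebrand factor, fell by 0.73. Both calls were lost without KO Ctrl replicate 2 and without WT replicate 3, with adjusted p from 0.0518 to 0.0937. Pf4, platelet factor 4, was among the most abundant transcripts at 21573, 18977 and 28233 FPKM in WT and 17644, 10482 and 11923 in KO Ctrl, a difference of -0.80 that was not called (adjusted p 0.192). Summed over the list, the range was 24800 to 35500 FPKM in WT and 14500 to 23900 in KO Ctrl. Mpig6b, an inhibitory receptor of platelets, was called at -1.94 but in only 2 of the 6 fits without 1 library.

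**Figure D3:**
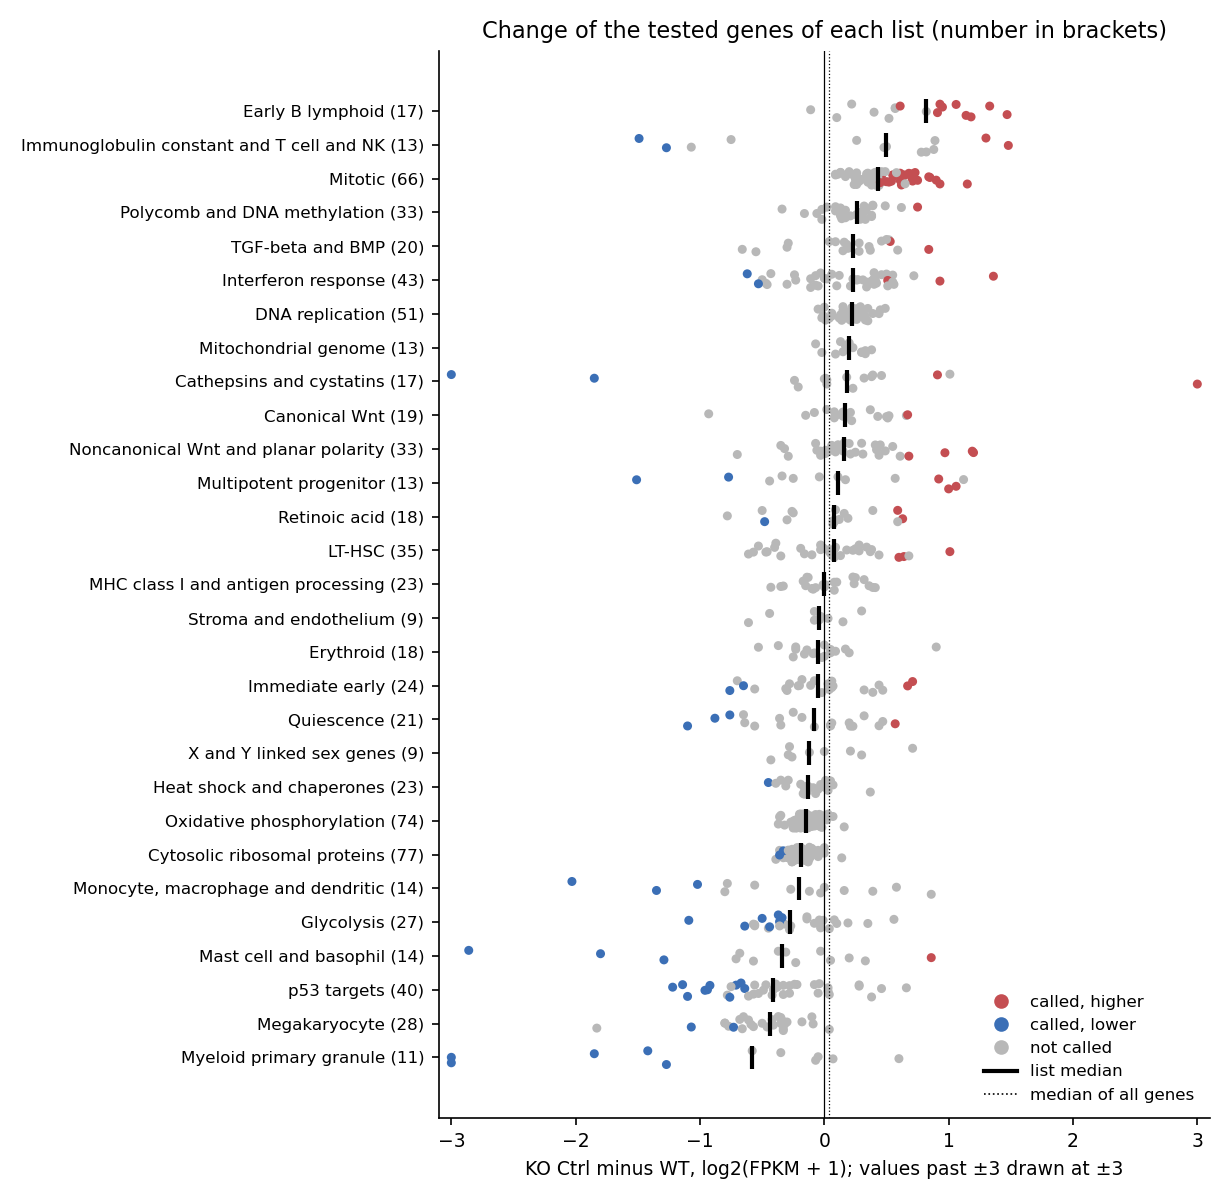
Difference between KO Ctrl and WT (horizontal axis, log2(FPKM + 1)) for each tested gene of the lists with at least 9 tested genes, 1 row per list with the number of genes in brackets. Red and blue dots are genes called higher and lower, black bars are list medians, and the dotted line is the median of all genes. The mitotic and early B lymphoid lists lie to the right, and the myeloid granule, megakaryocyte and p53 lists to the left.

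The sort was checked on its own genes. Ly6a, which encodes Sca-1, measured 91.0, 85.8 and 95.7 FPKM in WT and 163.3, 200.7 and 189.6 in KO Ctrl, a rise of 1.01 ± 0.20 and a stable call. Kit, which encodes c-Kit, measured 17.8, 17.8 and 11.6 FPKM in WT and 22.6, 33.6 and 31.9 in KO Ctrl, a rise of 0.86 that was lost in 3 of the 6 fits without 1 library (adjusted p 0.0513 to 0.092). Cd34 was present at 340.9 to 370.3 FPKM in WT and 370.8 to 437.1 in KO Ctrl although the gate is CD34-, and did not pass the test (0.17, adjusted p 0.535). Flt3, which encodes Flk2, was under the filter at 0.346 to 0.79 FPKM in WT and 0.846 to 1.87 in KO Ctrl. Itga2, which encodes CD49b, was lower still, at 0.328, 0.205 and 0.397 FPKM in WT and 0.030, 0.006 and 0.027 in KO Ctrl, and was not tested.

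Genes that mark LT-HSC had no common direction. Among 35 tested members 21 were above 0 and 14 below, and the median of 0.08 fell to -0.02 once the trend along length was removed. Beside Ly6a, the transcription factors Hlf (0.60) and Mecom (0.64) rose, each called in 1 of the 6 fits without 1 library. Vwf, von Willebrand factor, stood below 0 at -0.61 without a call. Of the genes of multipotent progenitors Cd27, a receptor of the tumour necrosis factor family, rose by 0.92 and Hmga2 by 1.0, while Plac8 fell by 0.77. The Hmga2 call was lost in 4 of those fits. Erythroid genes (18 tested) and genes of stroma and endothelium (9 tested) held no call, with medians of -0.05 and -0.04. Of 3 late neutrophil genes above the filter S100a9 rose by 1.43, between 0 and 0.544 FPKM in WT and 1.22 and 3.82 in KO Ctrl, and lost its call in 5 of the 6 fits. It passed the filter through the KO Ctrl libraries alone.

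DERARE regulates the Hoxb cluster, which spans chr11:96194316-96368256. Of the 12 cluster genes examined, 2 passed the filter and none was called. Hoxb2 measured 3.38, 3.40 and 3.104 FPKM in WT and 3.27, 5.05 and 4.37 in KO Ctrl (0.27, adjusted p 0.466). The antisense transcript Hoxb5os measured 1.099, 1.36 and 1.15 FPKM in WT and 2.46, 2.03 and 2.59 in KO Ctrl, where the groups did not overlap but the adjusted p was 0.102. Hoxb4, often studied in stem cell expansion, lay below the filter at 0.193, 0.327 and 0.41 FPKM in WT and 0.272, 0.298 and 0.521 in KO Ctrl, and Hoxb5 at 0.384, 0.604 and 0.689 against 0.811, 0.637 and 0.894. No test was made at these levels. Summed over the Hoxb list, the level was 6.31 to 6.94 FPKM in WT and 8.11 to 11.4 in KO Ctrl, a difference that was not tested. In the fit with 12 libraries 1 member of the list was called. In the Hoxa cluster Hoxa9, a stem cell factor, rose by 0.86, from 10.99, 10.2 and 8.12 FPKM to 13.8, 21.1 and 21.7, with its adjusted p of 0.021 rising above the threshold in 4 of the 6 fits (to 0.0503 to 0.131).

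Along chromosome 11 the neighbours of the cluster were examined by distance. None of 38 tested genes within 1 Mb was called, while 15 of 243 within 10 Mb were (6.17%), against 42 of 778 farther along the same chromosome (5.40%) and 4.10% of all genes. The nearest calls were Pdk2, a kinase that inhibits pyruvate dehydrogenase (0.94, lost in 4 of the 6 fits without 1 library), at 1.15 Mb, and Acsf2 and Chad at 1.59 and 1.62 Mb. Chad, which encodes the matrix protein chondroadherin, measured 8.11, 8.79 and 6.95 FPKM in WT and 22.5, 36.3 and 32.4 in KO Ctrl (1.79). Acsf2, an acyl-CoA synthetase gene, overlaps Chad on the opposite strand and rose by 1.28, and the reads of the pair cannot be told apart. Mpo and Gm11505 lie 8.39 Mb from the cluster and Top2a 2.62 Mb on its other side. Nme1, a nucleoside diphosphate kinase, fell by 0.47 at 2.23 Mb as a stable call. Prr11, Scpep1, Hlf, Ankrd40, the chemokine receptor Ccr7, plakoglobin (Jup) and Arhgap27 rose by 0.60 to 0.97. Of the 6 fits, Ccr7 kept its call in 5, Arhgap27 in 2, Prr11, Scpep1, Hlf and Ankrd40 in 1 each and Jup in none. Ccr7 passed the filter through the KO Ctrl libraries alone, so its direction was set by the filter. Over the chromosomes the share of called genes ran from 2.28% on chromosome 8 to 6.32% on chromosome 7.

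**Figure D4:**
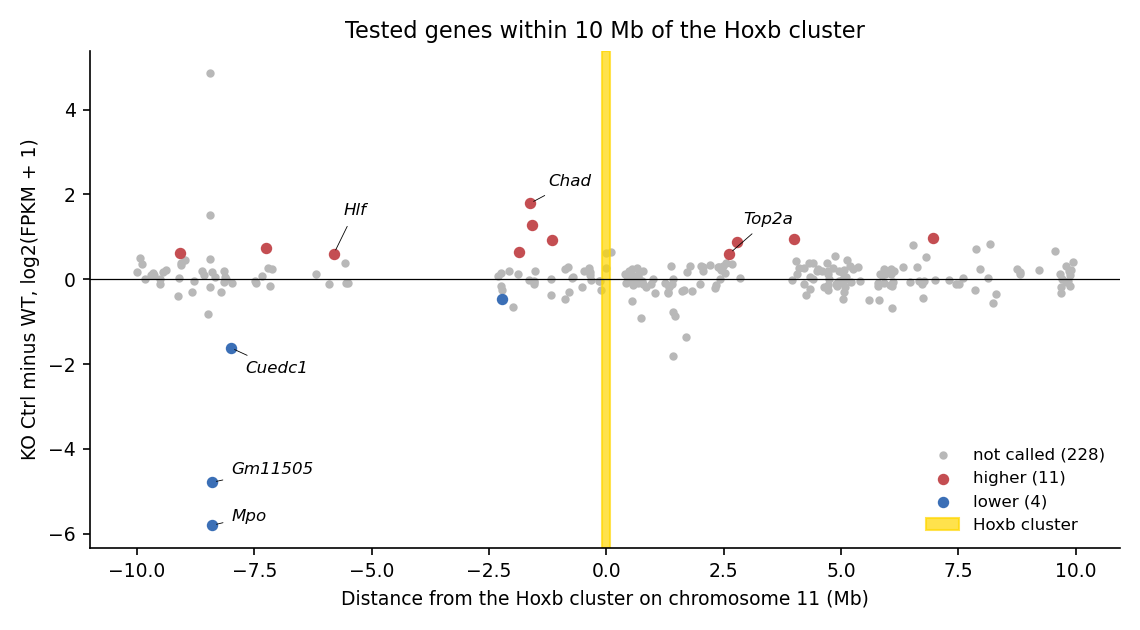
Difference between KO Ctrl and WT (vertical axis, log2(FPKM + 1)) of the 243 tested genes within 10 Mb of the Hoxb cluster, by distance in Mb (horizontal axis), 1 dot per gene. Red and blue dots are the 11 higher and 4 lower calls, and the yellow band is the cluster. No called gene lies within 1 Mb.

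Pathways named by the design were counted from lists of their genes. Of 33 tested genes of noncanonical Wnt signalling and planar polarity 4 rose and none fell, where 2.40% of all genes were called higher. The median was 0.16, and 0.04 after removal of the length trend. Vangl1, a core protein of planar cell polarity, measured 2.77, 2.71 and 2.93 FPKM in WT and 6.39, 7.51 and 9.53 in KO Ctrl, a rise of 1.2 ± 0.16 and a stable call. Camk2d (0.97) and Prkcb (1.19), kinases driven by calcium, rose and lost their calls in 2 of the 6 fits each, and Nfat5 (0.68) in 5. Wnt5a itself was listed at 0 to 0.014 FPKM in the 6 libraries, which is below a single fragment in 1 kb, and was not tested. On the canonical Wnt list of 19 tested genes Myc alone rose (0.67, lost in 5 of the 6 fits). Ccnd2, cyclin D2, was at 1164, 943.1 and 1007 FPKM in WT and 322.2, 901.5 and 553.4 in KO Ctrl, a wide spread within the knockout, and was not called (adjusted p 0.0816).

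Among 18 tested genes of retinoic acid metabolism and response, the retinol dehydrogenase Rdh12 rose by 0.63, while Aldh1a1, which makes retinoic acid, fell by 0.48. Both calls were lost in 5 of the 6 fits without 1 library. Dhrs3, which reduces retinal and is a known target of retinoic acid, stood at 55.9, 52.2 and 67.8 FPKM in WT and 53, 22.5 and 31.1 in KO Ctrl and was not called (adjusted p 0.195). Of 20 tested genes of TGF-beta and BMP signalling Tgif1, a repressor of the pathway, rose by 0.84 as a stable call and Smad4, its common mediator, by 0.53, with the latter lost in all 6 fits.

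In glycolysis 7 of 27 tested members fell and none rose, with a median of -0.28 and 6 members above 0. Among all genes 1.70% were called lower and 56.3% were above 0. Pgam1 measured 387.8, 388.6 and 434.3 FPKM in WT and 255.8, 268.9 and 250.9 in KO Ctrl, a fall of 0.64 ± 0.09. Ldha, lactate dehydrogenase A, fell by 0.50 from 3438, 3203 and 3514 FPKM to 2466, 2348 and 2364, and both were stable calls. Gapdh, Aldoa, Tpi1, Pgk1 and Hk3 also fell, by 0.34 to 1.09, and lost their calls in between 1 and 6 of the 6 fits, so that 2 to 5 members were called with 1 library left out. Genes of oxidative phosphorylation were below 0 in 70 of 74 cases with a median of -0.15 and no call. Below 0 were 43.7% of all genes. Cytosolic ribosomal proteins were below 0 in 75 of 77 with a median of -0.19 and 2 calls (Rpl34 and Rpl29), neither stable. After quantile normalization their medians were nearer 0, at -0.07 and -0.09.

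Interferon genes were mixed, with 3 of 43 tested members higher and 2 lower. Xaf1, an inhibitor of an anti-apoptotic protein, rose by 1.36 from 3.34, 4.56 and 2.53 FPKM to 8.15, 11.6 and 11.6, whereas Isg20, an exonuclease, fell by 0.62 and lost its call in 3 of the 6 fits. None of 23 genes of MHC class I and antigen processing was called. Gbp7 and Oasl2 were the other higher interferon calls and Ifitm3 the other lower call. With 1 library left out, 1 to 5 interferon genes were called. Among immediate early genes (24 tested) Dusp6 and Myc rose and Btg2 and Gadd45g fell, with 1 to 6 calls without 1 library. Hspa5 was the only call, lower, among 23 heat shock genes and chaperones. That list held 2 calls without KO Ctrl replicate 3 and 0 without any other 1 of the 6 libraries. Phc1 alone rose among 33 genes of Polycomb and DNA methylation. On the list of immunoglobulin, T cell and NK genes (13 tested) Tcrg-C4 and Ighm rose and Nkg7 and Cd28 fell, and on that of cathepsins and cystatins (17 tested) Ctse and Ctsf rose and Ctsg and Cst7 fell. Quiescence genes (21 tested) had 1 call higher and 3 lower, and neither the mitochondrial genome (13 tested) nor the sex-linked list (9 tested) held a call.

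The genes with the largest rises have varied roles. Ctse (chr1:131638306-131675505, plus strand), which encodes the aspartic protease cathepsin E, measured 1.115, 0.855 and 1.44 FPKM in WT and 15.3, 24.03 and 19 in KO Ctrl, a rise of 3.24 ± 0.20 with a limma adjusted p of 1.42e-08. Syce1 (chr7:140777229-140787852, minus strand), a part of the synaptonemal complex of meiosis, measured 0, 0.019 and 0 FPKM in WT and 4.62, 12.3 and 8.07 in KO Ctrl (3.13). Neither gene had a KO Ctrl library near the WT values. Syce1 passed the filter through the KO Ctrl libraries alone. Pmepa1, an inhibitor of TGF-beta signalling, rose by 1.59, the RNA-binding protein Khdrbs3 by 1.35, and Selplg, the selectin ligand PSGL-1, by 1.17, all as stable calls. Selplg had levels of 69.1, 77.3 and 64.6 FPKM in WT and 142.4, 168.4 and 168.9 in KO Ctrl. Mid1 (1.33), F10 (1.32) and Sept1 (1.16) were called in 2 of the 6 fits each. Trgj4, a joining segment of 61 bp, is listed at 0 in WT and at 498.5 to 925.5 FPKM in KO Ctrl, where a few fragments give a high value. It passed the filter through the KO Ctrl libraries alone, and its call was lost in every fit without 1 library. The variable segment Ighv5-12 measured 0.32, 0 and 0.431 FPKM in WT and 7.24, 9.71 and 1.88 in KO Ctrl, and also passed the filter through KO Ctrl alone.

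The same genotype difference could be read in 6 other libraries, KO Wnt5a against Wnt5a. All 18 libraries share 1 estimate of spread per gene, so the calls of the 2 comparisons are not independent. In KO Wnt5a against Wnt5a 521 genes were called (4.32%), 232 higher (1.92%) and 289 lower (2.40%). That total was 262 without Wnt5a replicate 1, 170 without Wnt5a replicate 3, and 346, 257 and 226 without KO Wnt5a replicates 1, 2 and 3. The labels do not say whether the mice are the same. Of the 494 genes 456 (92.3%) had the same sign there, where 60.2% of all genes were above 0, and 136 (27.5%) were called with the same sign, which is 26.1% of the calls in those libraries. The 289 higher genes had a median of 0.73 in the control libraries and 0.40 in the Wnt5a libraries, and the 205 lower genes of -0.71 and -0.37. The genes were chosen on the control libraries, so these medians are a description.

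Several granule, protease, megakaryocyte and p53 target genes were called in these libraries. The megakaryocyte list had 13 of 28 members lower there, none higher and a median of -0.82, against 2 lower and -0.44 in the control libraries, and whether the lists differ between the sets was not tested. Mpo measured 67.4, 94.5 and 65.9 FPKM in Wnt5a and 0.022, 0.234 and 0.011 in KO Wnt5a (-6.13), and the Ctsg difference had an adjusted p of 1.19e-04 there. Mcpt8 (-3.74), Ccl9 (-2.50), Ms4a3 (-1.48), Ctse (3.38) and Syce1 (4.47) were called in those libraries too. Of the p53 targets 6 of 40 were called lower and 1 higher there with a median of -0.32, and Cdkn1a (-1.54) and Phlda3 (-1.62) were among them. The mitotic list had a median of 0.19 and 3 of 66 members higher, Top2a among them at 0.41, whereas Ube2c stood at 0.04 and Cdk1 at 0.02. Early B lymphoid genes had a median of 0.42 and 3 of 17 higher, with Igll1 at 0.47 and not called (adjusted p 0.249).

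**Figure D5:**
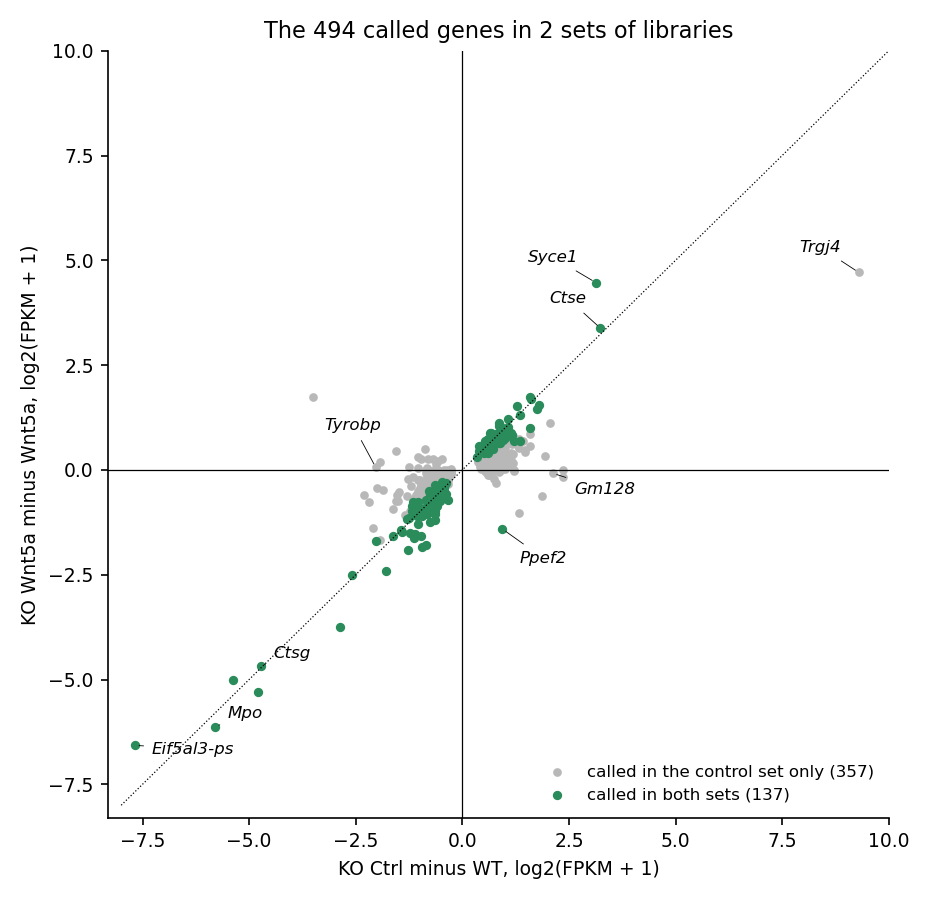
Difference of the 494 called genes between KO Ctrl and WT (horizontal axis) and between KO Wnt5a and Wnt5a (vertical axis), both as log2(FPKM + 1), 1 dot per gene and a dotted line of equal values. Green dots are the 137 genes called in both, 136 of them with the same sign, and the exception is Ppef2. Mpo, Ctsg and Ctse lie near the line, Syce1 above it (3.13 and 4.47), and Tyrobp near 0 on the vertical axis.

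A test of the difference between the 2 genotype differences called 7 genes of 12057 (0.0581%). The difference was positive for 1 (0.00829%) and negative for 6 (0.0498%), and 783 genes reached an unadjusted p below 0.05. The count was 14 without KO Ctrl replicate 2, 16 without KO Ctrl replicate 3 and 25 without Wnt5a replicate 2. Tyrobp was one of them, since its fall of 2.03 in KO Ctrl met a difference of 0.06 between KO Wnt5a and Wnt5a. Vangl1 stood at 1.2 and -0.02, Lgals3 at -2.31 and -0.59 and Cst7 at -1.85 and -0.49, but for these 3 the test of the difference was not passed. F10 stood at 1.32 and -1.03, and for it the test was not passed either (limma adjusted p 0.0517). No list of this report other than the monocyte list, through Tyrobp, held a gene called in that test.

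The reserve libraries are another cell population, with more genes called between genotypes. Their columns in the deposited table carry the letters fl beside wt or ko, which the labels do not explain, and their genotype is taken from the titles. KO Reserve against WT Reserve gave 5264 calls (43.7%), 1453 higher (12.1%) and 3811 lower (31.6%). The difference from the control libraries was called for 4038 genes (33.5%), 1025 higher (8.50%) and 3013 lower (25%). Mpo was present in both genotypes there, with 185.8, 112.1 and 95.1 FPKM in WT Reserve and 68.8, 111.2 and 173.5 in KO Reserve, groups that overlap.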

How the data were processed

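The authors deposited 1 table of FPKM values per gene and library, a unit that was checked on the values. Per the labels, cDNA was made with the SMARTer ultra low input kit v3 and Nextera libraries, which keep no strand. Per the submitters' processing notes, CASAVA 1.8.2, TopHat2 2.0.10, Cufflinks and the mm10 assembly were used. The annotation is not given in the sources used here. For 43938 of 44349 identifiers GENCODE M21 (GRCm38) supplied symbol and position. With missing values 16 genes were left out.

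Genes that reached 1 FPKM in 3 or more of the 6 libraries were converted to log2(FPKM + 1). Using limma 3.58.1 (trend and robust moderation, R 4.3.3), group means and 1 spread per gene were estimated from all 18 libraries, a step also tested on simulated data. No replicate block was used. Every p is 2-sided and adjusted by Benjamini-Hochberg over all 12057 genes. Depth was inferred from the lowest frequent values of 10452 genes. Floors cover counting error only. Summaries used Python 3.11.15 (pandas 2.3.3, numpy 2.4.6) and figures matplotlib 3.10.9.

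The comparison, the 33 gene lists and the tests were chosen with earlier results of these data known. Named genes are the 20 largest called rises and falls without overlap between groups (at least 5 FPKM in the higher group, no unnamed models or pseudogenes), called or leading list members, Hoxb and sort genes, and called genes within 10 Mb of Hoxb. A few genes that the rule names are not reported here. Others, such as Gm11505, Il1b, Trp53 and Elane, were named after their values were seen. Alternatives were other scalings, a pseudocount of 0.1, filters, fits without moderation, with library weights or with fewer libraries, and leaving out each library.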

Additional observations from a re-analysis of the deposited data

Results flagged for a closer look

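A test of the difference between the genotype difference in the Wnt5a libraries (KO Wnt5a minus Wnt5a) and that in the control libraries (KO Ctrl minus WT) was passed by 7 genes. On the log2(FPKM + 1) scale the difference of differences was -4.23 for Npy, neuropeptide Y, which measured 184.1, 142.8 and 251.4 FPKM in WT and 116.3, 45.2 and 54.0 in KO Ctrl, and 152.2, 75.5 and 312.9 in Wnt5a and 2.04, 3.16 and 0.949 in KO Wnt5a. It was 2.09 for Tyrobp and -2.35 for Ppef2, a phosphatase that is higher in KO Ctrl than in WT by 0.94 and lower in KO Wnt5a than in Wnt5a by 1.41. The others were 3830403N18Rik at -2.49, Fam169a at -2.16, Gm128 at -2.21 and Ighv1-26 at -2.52. Of these, 3830403N18Rik and Ighv1-26 passed the filter through the KO Ctrl libraries alone.

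Of the 40 genes with the largest rises and falls, 8 were called in the opposite direction between KO Reserve and WT Reserve, where 43.7% of all genes were called, and passed the test of the difference. All but AA465934 rose in KO Ctrl and were lower in KO Reserve, where 31.6% of all genes were called lower. AA465934 was higher there, as were 12.1% of all genes. The count is therefore not read as a trait of these genes. Relative to the control libraries the reserve libraries differed by -2.71 for Chad, -3.34 for Tcrg-C4, -3.73 for Xaf1, -2.56 for Cd72, -2.31 for Ighm, -2.85 for Selplg and -2.42 for Sept1. The transcript AA465934 went the furthest at 11.28. It measured 156.5, 178.2 and 188.2 FPKM in WT and 4.44, 3.25 and 2.18 in KO Ctrl, but 21.6, 20.6 and 15.7 in WT Reserve and 1028, 1142 and 1454 in KO Reserve.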

How the results depend on the processing

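No direction of a named gene reversed under any alternative, which was largely fixed in advance because these genes were chosen as called in the same libraries. Library groups did not overlap for 492 of the 494 called genes, so leaving 1 library out cannot turn their sign. Between 63 (without WT replicate 3) and 133 (library weights) of 133 named called genes were called. Higher calls numbered 156 with no filter, 895 with library weights, 491 with 12 libraries and 92 to 320 with 1 library left out. Here and for lower calls the library left out is 1 of the 6 compared. Lower calls numbered 347 after median-ratio scaling, 624 with weights, 405 with 12 libraries and 64 to 194 with 1 left out. KO Wnt5a against Wnt5a gave 291, 1709, 869 and 170 to 502 calls (no filter, weights, 12 libraries, 1 left out). The difference between both genotype differences gave 18 genes after quantile normalization, 12 with no filter, 1 at a mean of at least 5 FPKM, 64 with weights, 14 among coding genes of at least 300 bp and 5 to 25 with 1 left out. The cause was not tested. With the replicate number as a block 258 genes were higher and 229 lower. Deviations of same-numbered libraries correlated at 0.123, 0.080 and 0.044, and those of the other pairs across genotypes at -0.165 to 0.106. These values cannot decide whether equal numbers mark pairs. No label says that they share an animal or day, so the numbers were not used as pairs. Of 33 list medians 5 changed sign under some alternative: LT-HSC, multipotent progenitor, immunoglobulin and T cell, late neutrophil and erythroid. That of MHC class I (0.00) ran from -0.07 to 0.07. Of the calls kept without each library, those of Lgals3, Fcer1g, Il1bos and Ighv5-12 were lost with the replicate block (adjusted p 0.067, 0.155, 0.0521 and 0.104), Ccl2, Il1bos and Ighv5-12 with only the 6 libraries (0.103, 0.0635 and 0.0548), Ldha after quantile normalization (0.054) and Pmaip1 at a pseudocount of 0.1 (0.13). The filter at 1 FPKM left 10 of the 12 Hoxb genes untested. In the 6 libraries 3 fragments in 1 kb equal 0.0728 to 0.141 FPKM, and depth limits values near or below that.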

Other observations

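Eif5al3-ps, a processed pseudogene on chromosome 5, had the largest fall of all called genes. The pseudogene measured 400.3, 415.2 and 417.1 FPKM in WT and 1.32, 1.16 and 0.623 in KO Ctrl, a difference of -7.68. In the Wnt5a libraries it was at 375.4, 389.2 and 348.1 FPKM and in KO Wnt5a at 1.76, 2.93 and 4.55. In the reserve libraries the order was the opposite, with 5.14, 3.94 and 1.122 FPKM in WT Reserve and 385.7, 322.1 and 262.6 in KO Reserve. AA465934 was reversed in the same way. The labels do not state the strain background of the reserve mice or explain the column names of that set, and no targeted gene checks its titles, on which these directions rest. Reads of a processed pseudogene and its parent gene can be shared, so its values are uncertain.

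Among stable calls outside the lists and the rule for named genes, chosen here after their values were seen, Gps2, a subunit of a nuclear receptor corepressor complex, rose by 0.99 and Myb, a transcription factor of blood progenitors, by 0.73. Vim, vimentin, rose by 0.89, from 53.6 to 100 FPKM on average. The repair enzyme Mgmt fell by 1.03, from 54.7 to 26.6 FPKM. Of these 4 genes each was also called with the same sign between KO Wnt5a and Wnt5a, at 0.76, 0.51, 0.65 and -0.77. The chemokine Xcl1 measured 3.02 FPKM on average in WT and is listed at 0 in every KO Ctrl library. It passed the filter through the WT libraries alone.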
